A study of Mus musculus with 9 samples.

Results

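The 47 genes described here encode proteins of DNA replication and of the step from G1 into S phase. They were chosen by name from the mouse gene symbols, by function and with earlier results of these data known, and all 47 were found among the 54281 genes of the files. All 47 were among the 23834 genes with enough reads to test, so no gene of the set is left out of the counts below. They were sorted by role into 8 groups: helicase loading, helicase activation, the sliding clamp and its loader, polymerases and primase, Okazaki fragment processing, deoxynucleotide supply, cyclin E with the E2F factors, and chromatin assembly.

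RNA was sequenced from Comma-1D, a mouse mammary epithelial cell line that holds several cell states in culture. Cells transduced with an activated MYC oncogene, cells transduced with an activated Her2 oncogene and control cells each gave 3 sorted populations: bi (Sca-1 high, EpCAM high), L (Sca-1 low, EpCAM high) and B (Sca-1 high, EpCAM low). Each of the 9 combinations has 1 library. All cells grew in the same medium with serum, EGF and insulin, so the controls were under growth factors too. The labels do not say whether the controls carried an empty vector, from which species the transgenes came, or whether the populations of an arm came from 1 transduction, and an effect of transduction therefore cannot be told apart from that of the oncogene.

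Cells copy their genome once in each cycle. In G1 the origin recognition complex, Cdc6 and Cdt1 load the MCM helicase on DNA, and in S phase Cdc45 and the GINS complex turn it on. Polymerases then follow the fork, held by the sliding clamp PCNA that the RFC complex loads, while ribonucleotide reductase, thymidylate synthase and thymidine kinase supply deoxynucleotides. Many of these genes are targets of E2F transcription factors, which cyclin E with its kinase helps to release from RB proteins. E2F1 and E2F2 are mostly activators, and E2F7 and E2F8 are repressors that are themselves E2F targets. In mammary epithelium, as in other tissues, these transcripts are abundant in cycling cells and scarce in resting ones.

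Library totals ran from 46915300 to 98874100 estimated reads, with B libraries at no more than 54012700 and the bi control deepest. Within each population the MYC library had the lowest total. The MYC totals were 53391100 in bi, 69340400 in L and 46915300 in B. The Her2 and control totals were 81188000 and 98874100 in bi, 75625100 and 75350500 in L, and 51662200 and 54012700 in B. The part of read totals in the differences between arms was not tested. The labels held in the data: Myc stood at 188 to 285 CPM (reads scaled to a common total per library) in MYC libraries against 83.3 to 114 in controls, and Erbb2, which encodes Her2, at 189 to 651 CPM in Her2 libraries against 53.3 to 88.9 in controls. Of 8 markers that define mammary epithelium, Krt5, Krt14 and Trp63 were abundant in all 9 libraries, while Krt8, Krt7, Epcam and Cdh1 were near 0 in the B libraries, at no more than 2.02 CPM, and Krt18 at no more than 4.27. Krt8 was low in bi too, at 3.31, 0.95 and 0.53 CPM in the MYC, Her2 and control libraries. Ly6a, which encodes Sca-1, was lower in L than in bi and B within each arm, as sorted. The summed level of 8 fibroblast markers was 23.9 to 39.3 CPM in bi and 19.0 to 20.8 in L, against 85.4 to 149 in B, with Pdgfra the most abundant there. Pdgfra and Pdgfrb were higher in each B library than in any bi or L library. That did not hold for the other markers, and Col1a1 stood at 4.73 and 2.38 CPM in B MYC and B Her2 against 11.8 in the bi control. All 7 leukocyte markers were under 1 CPM in every library, and 5 endothelial and 4 adipocyte markers summed to at most 5.52 and 5.16 CPM. In sorted bulk cells, fewer cells in S phase and less of these RNAs per cell cannot be told apart.

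Together the 47 genes took 1705, 1883 and 1404.5 CPM in the MYC libraries of bi, L and B. They took 3651, 3499 and 2749.9 CPM in the Her2 libraries and 4861, 4091 and 2254 CPM in the controls. The MYC library was the lowest of its population in bi, L and B. The control was highest in bi and L, and in B it was the Her2 library. Among the 3 arms and 3 populations, arm took a median of 68.3% of a gene's variance over these 47 genes and population 23.7%, against 20.6% and 33.5% over all 23834 genes tested. Arm took more than population in 41 of the 47. The 6 exceptions were Gins3, Lig1, E2f2, Rfc4 (23.9% for arm, 57.1% for population), Pole2 (29.2% and 61.5%) and Tk1 (36.2% and 61.8%).

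**Figure D1:**
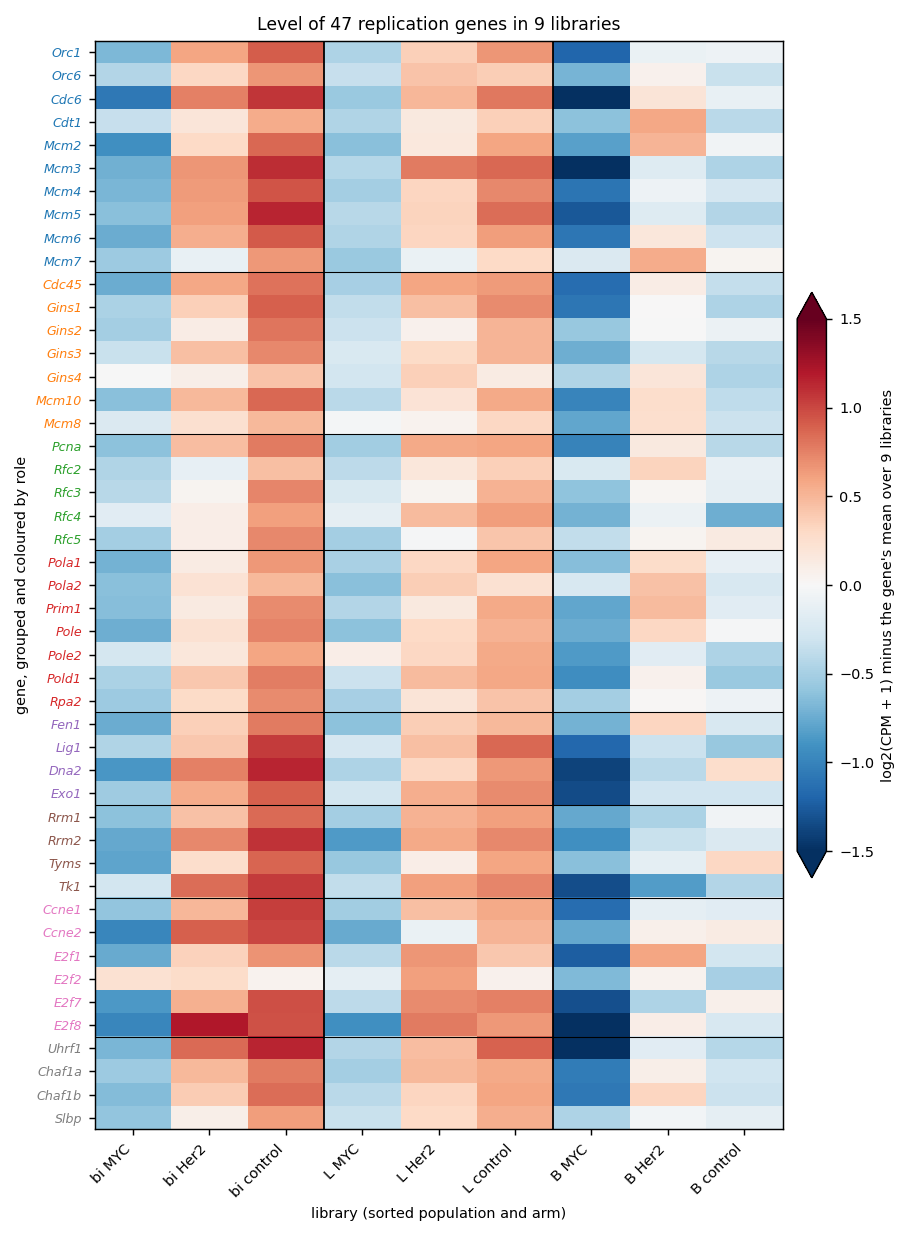
Level of each of the 47 genes in each of the 9 libraries, as log2(CPM + 1) minus the gene's mean over all 9. Rows are genes grouped and coloured by role, columns are libraries grouped by sorted population, and the colour scale is clipped at 1.5 each way. The MYC columns are below the mean for nearly all genes, and the bi and L control columns above it.

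In cells with MYC the replication genes were lower than in control cells, averaged over the 3 populations. The comparison of each arm with control was made with edgeR's quasi-likelihood test, with population as a block, and a gene counted as called if its p, adjusted by Benjamini and Hochberg over all genes tested, was under 0.05. Of the 47 genes 17 fell and none rose, where 0.264% of all genes fell. All 47 estimates were below 0, with a median log2 fold change of -1.10 against 0.03 for all genes. In 43 of the 47 the MYC library was below its control in all 3 populations, as it was in 18.1% of all genes. The other 4 were E2f2, which was above control in bi, and Rfc4, Gins4 and Pola2, which were level with it in B.

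Helicase loading genes, which license origins in G1, fell in 5 of 10 cases (median log2 fold change -1.27). Cdc6, the ATPase that helps to load the MCM ring, stood at 9.54, 14.1 and 6.47 CPM in the MYC libraries of bi, L and B, against 45.7, 37.4 and 19.6 in their controls (log2 fold change -1.75, SE 0.23, adjusted p = 0.023). No MYC library reached any control, and the largest gap was in bi. Orc1, the largest subunit of the origin recognition complex, stood at 11.1, 13.03 and 7.48 CPM with MYC and 35.1, 29.4 and 17.3 in controls (log2 fold change -1.35, SE 0.18, adjusted p = 0.0272). Mcm3, a subunit of the helicase ring, stood at 86.1, 106 and 46.0 CPM with MYC against 309.5, 259.6 and 104 in controls (log2 fold change -1.45, SE 0.19, adjusted p = 0.023). The L MYC library lay just above the B control for Mcm3, so the arms overlapped across populations but not within any of them. Mcm4 (-1.25) and Mcm5 (-1.31) also fell. The other 3 ring subunits were not called, with Mcm2 at -1.30 (adjusted p = 0.0548), Mcm6 at -1.19 (0.054) and Mcm7 at -0.80 (0.15). Orc6, the smallest origin recognition subunit, was at -0.78 (0.112). Cdt1, the loading partner of Cdc6, had the smallest estimate of the group (-0.69, SE 0.25, adjusted p = 0.245).

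The promoters of the licensing genes are shown because the E2F site is the best known sequence these genes share. RefSeq promoters of GRCm38.p6 were at hand for 39 of the 47 genes, as 45 windows of 300 bases from 250 before to 50 after a transcript start. Pole, Exo1, Gins1, Gins2, Gins4, Mcm4, Rfc2 and Ccne2 had no entry. A match to TTTCCCGC, TTTGGCGC, TTTCGCGC or TTTGCCGC on either strand was present in 17 of the 45 windows (37.8%), and in 2.26% of all 32851 windows in the table. By gene, 7 of 9 helicase loading genes held a match and none of the 4 deoxynucleotide supply genes did. CCAAT, searched on both strands, was present in 60% of the 45 windows and 37.4% of all, and the E-box CACGTG, a palindrome that MYC with MAX is known to bind, in 13.3% and 7.15%. The 6 windows below are those of 4 licensing genes and of E2f7, all called in MYC against control and each with a match in capitals, and of E2f8, which was called and has none. They are examples. The window of Uhrf1, also called with a match, and those of the other called genes without one are not shown. Positions are counted from the RefSeq start as 1, with negative numbers before it, and name the leftmost base of the match.
Orc1: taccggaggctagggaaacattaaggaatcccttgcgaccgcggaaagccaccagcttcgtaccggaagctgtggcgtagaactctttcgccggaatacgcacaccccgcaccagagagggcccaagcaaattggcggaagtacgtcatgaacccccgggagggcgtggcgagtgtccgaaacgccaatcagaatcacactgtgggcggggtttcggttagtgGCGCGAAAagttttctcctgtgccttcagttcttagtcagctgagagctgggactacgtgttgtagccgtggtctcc
Cdc6: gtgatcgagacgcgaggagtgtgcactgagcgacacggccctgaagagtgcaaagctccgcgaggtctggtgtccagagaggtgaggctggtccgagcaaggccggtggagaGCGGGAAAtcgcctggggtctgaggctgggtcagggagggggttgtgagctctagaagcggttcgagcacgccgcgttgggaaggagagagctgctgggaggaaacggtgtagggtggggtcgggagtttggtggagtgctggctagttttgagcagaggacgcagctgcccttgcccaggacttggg
Mcm3: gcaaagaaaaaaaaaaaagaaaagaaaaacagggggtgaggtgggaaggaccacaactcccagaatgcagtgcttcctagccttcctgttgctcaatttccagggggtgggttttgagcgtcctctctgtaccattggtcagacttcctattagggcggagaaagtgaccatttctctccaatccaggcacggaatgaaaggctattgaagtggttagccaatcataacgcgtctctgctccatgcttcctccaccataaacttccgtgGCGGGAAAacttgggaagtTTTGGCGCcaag
Mcm5: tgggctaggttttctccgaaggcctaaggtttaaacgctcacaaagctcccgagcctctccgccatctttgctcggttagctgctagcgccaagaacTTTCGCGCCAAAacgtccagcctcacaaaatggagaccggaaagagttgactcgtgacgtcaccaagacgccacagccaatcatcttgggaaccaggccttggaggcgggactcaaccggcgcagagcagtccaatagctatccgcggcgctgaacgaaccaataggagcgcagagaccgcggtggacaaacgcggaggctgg
E2f7: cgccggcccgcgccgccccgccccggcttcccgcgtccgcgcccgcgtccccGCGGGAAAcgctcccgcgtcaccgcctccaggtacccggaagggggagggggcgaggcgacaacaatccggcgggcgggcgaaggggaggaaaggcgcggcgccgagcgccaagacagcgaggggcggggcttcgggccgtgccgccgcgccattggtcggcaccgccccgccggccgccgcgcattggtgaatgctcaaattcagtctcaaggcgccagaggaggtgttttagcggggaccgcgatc
E2f8: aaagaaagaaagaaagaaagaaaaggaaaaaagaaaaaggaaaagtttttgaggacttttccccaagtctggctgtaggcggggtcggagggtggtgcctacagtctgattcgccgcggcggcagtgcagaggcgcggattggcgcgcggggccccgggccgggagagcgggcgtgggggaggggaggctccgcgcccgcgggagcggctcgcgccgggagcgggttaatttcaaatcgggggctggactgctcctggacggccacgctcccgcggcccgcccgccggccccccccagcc

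The Orc1 window (chr4:108579204-108579503, plus strand) has its match at -27, close to the start. The Cdc6 window (chr11:98907901-98908200, plus strand) has 1 at -138. The Mcm3 window (chr1:20820263-20820562, minus strand) has a pair at 20 and 39, both after the start. In the Mcm5 window (chr8:75109259-75109558, plus strand) the matches at -153 and -149 overlap on opposite strands, so that the capitals form 1 stretch. The E2f7 window (chr10:110745189-110745488, plus strand) has 1 at -198, and the E2f8 window is chr7:48881547-48881846, minus strand. In 36 of the 45 windows the first 25 bases from the RefSeq start lay in a GENCODE transcript of the gene. The Mcm5 window was not among them, so its positions hold for the RefSeq start only. Of the 17 genes with a match 6 fell with MYC, as did 8 of the 22 without one, and their median log2 fold changes were -1.02 and -1.09. These counts describe letters in a window and say nothing of binding.

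**Figure D2:**
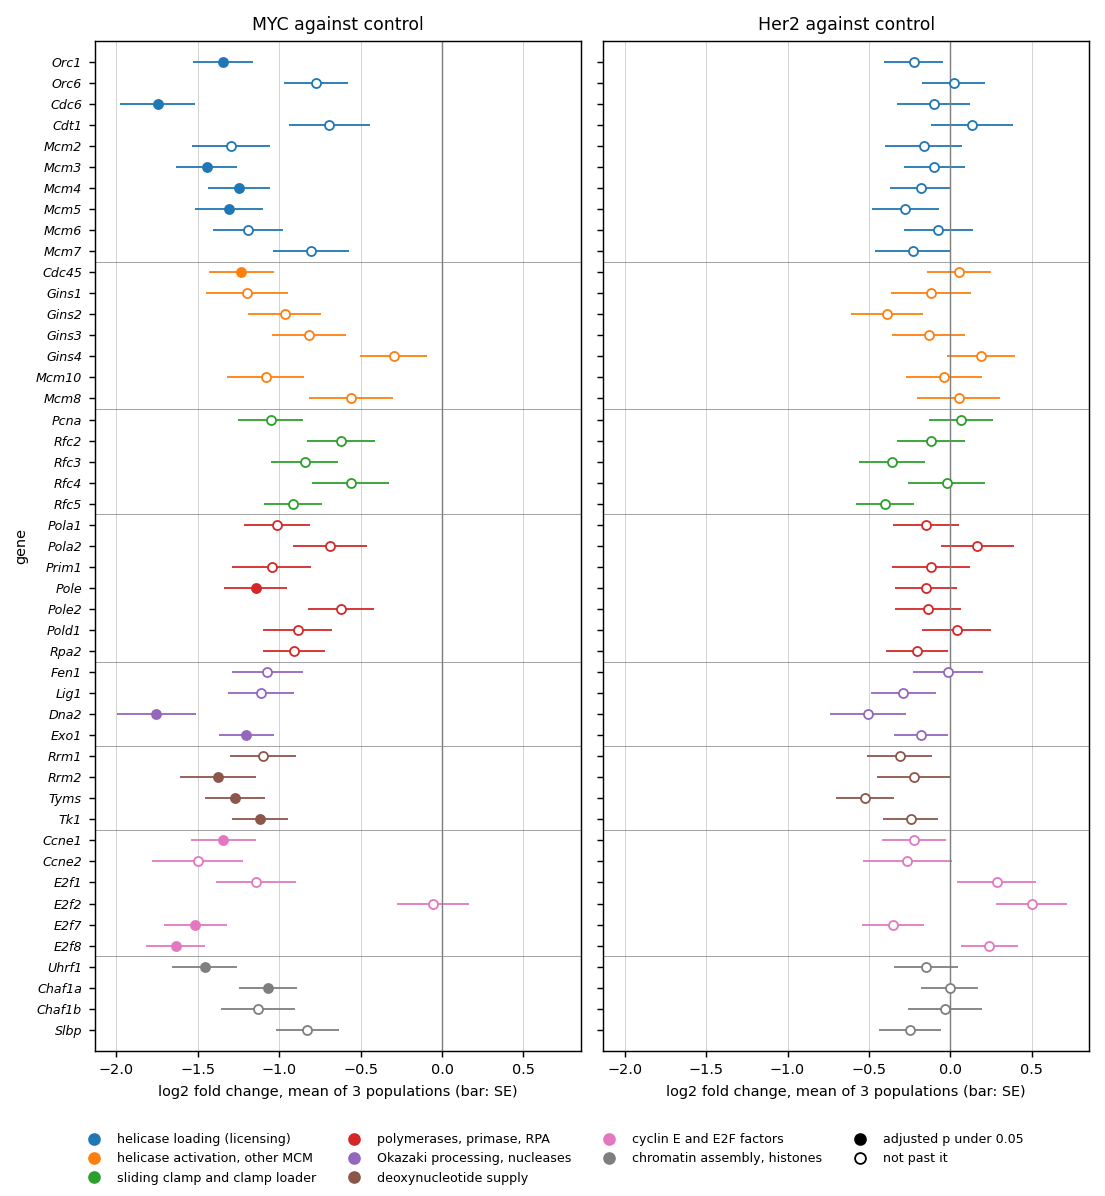
Log2 fold change of each of the 47 genes for MYC against control (left) and Her2 against control (right), each the mean over 3 populations, with bars of 1 SE. Filled points are genes past an adjusted p of 0.05. All 47 points lie below 0 on the left, 17 of them filled, and on the right 36 lie below 0 and none is filled.

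Among the helicase activation genes 1 of 7 fell with MYC (median -0.97). Cdc45, which binds the MCM ring to form the active helicase, stood at 13.6, 16.3 and 10.1 CPM with MYC against 42.3, 37.3 and 18.1 in controls (log2 fold change -1.23, SE 0.20, adjusted p = 0.0435). Mcm10, a firing factor, stood at 19.4, 22.8 and 14.8 CPM against 56.3, 45.8 and 23.2 and was not called (log2 fold change -1.08, SE 0.24, adjusted p = 0.0789). The estimates of the 4 GINS subunits were unequal, with Gins1 at -1.20 (adjusted p = 0.0744) and Gins4 at -0.30 (0.594), and Gins2 (-0.97) and Gins3 (-0.82) between them. Mcm8, an MCM protein of repair, was at -0.56 (0.374). In B, Gins4 stood at 21.6 CPM with MYC and 21.3 in control, with no gap between them. Whether the GINS genes differ from each other was not tested.

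None of the 5 clamp and clamp loader genes passed the threshold with edgeR (median -0.84), though all 5 had an unadjusted p under 0.05. Pcna, the sliding clamp, came nearest, at 92.8, 99.0 and 71.0 CPM with MYC against 245, 215 and 107 in controls (log2 fold change -1.05, SE 0.20, adjusted p = 0.0598). Its pair of named pseudogenes held 0.033% of its reads. The loader subunits Rfc2 to Rfc5 had estimates from -0.92 (Rfc5) to -0.56 (Rfc4). Rfc4 stood at 11.7 CPM in B MYC and 11.5 in B control, while in bi it stood at 17.5 with MYC and 30.8 in control.

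Of the 7 polymerase, primase and single-strand binding genes only Pole fell (median -0.91). Pole, the catalytic subunit of the leading-strand polymerase, stood at 52.5, 56.8 and 52.1 CPM with MYC against 148, 126 and 86.9 in controls (log2 fold change -1.14, SE 0.19, adjusted p = 0.0466). The 3 MYC libraries spanned a range of under 5 CPM, while the controls spread with population. Pola1, the catalytic subunit of the polymerase that starts each fragment, was at -1.02 (adjusted p = 0.0675), and Prim1, its primase, at -1.05 (0.0874). Pold1, the catalytic subunit of the lagging-strand polymerase, was at -0.89 (0.097), and Rpa2, of the single-strand binding complex, at -0.91 (0.0744). Pole2 (-0.62) and Pola2 (-0.69), accessory subunits, had the smallest estimates.

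Of the 4 genes of Okazaki fragment processing and nucleases, Dna2 and Exo1 fell. Dna2, a nuclease and helicase that trims long flaps and resects DNA ends, stood at 5.52, 7.68 and 3.54 CPM with MYC against 25.4, 17.7 and 13.3 in controls (log2 fold change -1.75, SE 0.24, adjusted p = 0.0281), the largest fall of the 47. Its B MYC library, the lowest of the 9, held 155 reads. Exo1, an exonuclease of mismatch repair and resection, stood at 20.4, 24.5 and 11.2 CPM against 56.6, 49.6 and 24.3 (log2 fold change -1.20, SE 0.17, adjusted p = 0.0283). Fen1, the flap endonuclease (-1.07, adjusted p = 0.0702), and Lig1, the ligase that joins the fragments (-1.11, 0.0546), were just short of the threshold.

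Rrm2, Tyms and Tk1 fell among the 4 deoxynucleotide supply genes. Rrm2, the small subunit of ribonucleotide reductase that cycles with S phase, stood at 66.8, 62.6 and 59.5 CPM with MYC against 243, 189 and 97.8 in controls (log2 fold change -1.38, SE 0.23, adjusted p = 0.0466). The MYC libraries were nearly level across populations, and the bi control was the highest. Tyms, thymidylate synthase, stood at 26.5, 30.9 and 29.9 CPM against 85.8, 70.3 and 57.7 (log2 fold change -1.27, SE 0.18, adjusted p = 0.029). Tk1, thymidine kinase, stood at 56.3, 52.5 and 26.6 CPM against 142, 114 and 50.2 (log2 fold change -1.12, SE 0.17, adjusted p = 0.0383), and its bi and L MYC libraries were just above the B control. Rrm1, the large reductase subunit, stood at 134, 145 and 121 CPM against 373, 317 and 198 and was not called (log2 fold change -1.10, SE 0.20, adjusted p = 0.0548).

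The cyclin E and E2F group held both the smallest adjusted p and the estimate nearest to 0. E2f8 stood at 23.1, 24.0 and 15.6 CPM with MYC against 90.9, 73.5 and 39.2 in controls (log2 fold change -1.64, SE 0.18, adjusted p = 0.0135), and E2f7, the other atypical repressor, at 14.0, 19.7 and 9.92 against 51.9, 44.7 and 27.6 (log2 fold change -1.52, SE 0.19, adjusted p = 0.023). Every MYC library was below every control for both. Ccne1 fell too (-1.34, adjusted p = 0.0331), and Ccne2 had a similar estimate with a wider error (-1.502, SE 0.28, adjusted p = 0.0567). The activator E2f1 stood at 12.3, 15.98 and 8.504 CPM with MYC against 34.9, 28.7 and 17.5 in controls and was not called (log2 fold change -1.14, SE 0.25, adjusted p = 0.0772). E2f2, the other activator, stood at 11.0, 8.36 and 5.49 CPM against 9.60, 9.67 and 6.27 (log2 fold change -0.056, SE 0.22, adjusted p = 0.954). Its bi MYC library was above the bi control and its L and B MYC libraries below theirs.

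Uhrf1 and Chaf1a fell among the 4 chromatin genes. Uhrf1, which brings the maintenance methyltransferase to newly copied DNA, stood at 94.6, 112 and 48.9 CPM with MYC against 338, 281 and 113 in controls (log2 fold change -1.46, SE 0.20, adjusted p = 0.0272). The B MYC library was the lowest of the 9 and the B control only just above the L MYC library. Chaf1a, the large subunit of the histone chaperone CAF-1, was at -1.07 (adjusted p = 0.0466) and its partner Chaf1b at -1.13 (0.0692). Slbp, which binds the stem loop of histone mRNAs, was at -0.83 (0.092).

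The direction of this comparison held without each library in turn, but the number of calls did not. None of the 17 genes changed sign in any alternative, and of all 47 estimates 46 or 47 stayed below 0. The count of 17 became 0 without the bi MYC library and 0 without the bi control, 3 without L MYC, 3 without L control, 9 without B MYC and 10 without bi Her2, while it became 31 without B Her2 and 33 without B control. The residual of the test holds the interaction of population and arm, and with 1 library for each combination the p-values measure only the spread between these 9 libraries.

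**Figure D3:**
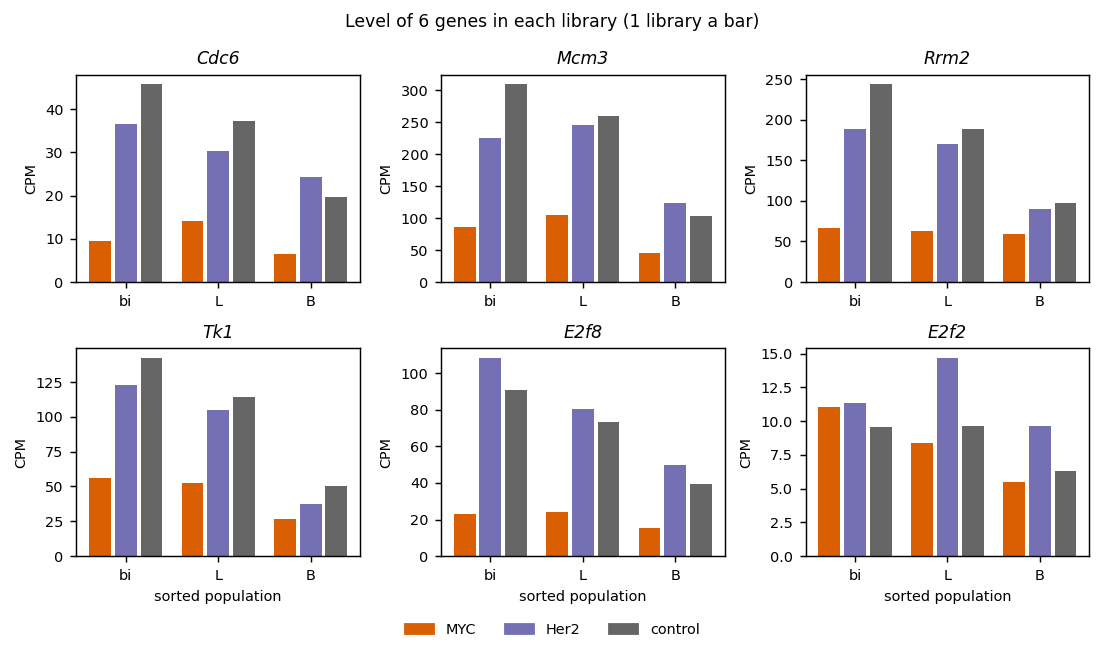
Level of Cdc6, Mcm3, Rrm2, Tk1, E2f8 and E2f2 in CPM, 1 library a bar, grouped by sorted population and coloured by arm. The MYC bar is the lowest of its population for each gene except E2f2 in bi, where the control is lowest.

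Within single populations the gap between MYC and control was largest in bi and smallest in B. These values compare 1 library with 1, have no test, and count a gene at a difference of 1.5-fold or more, on log2 CPM with a prior count of 2. In bi, 45 of 47 genes were lower by that much (14.3% of all genes), in L 43 (11.7%) and in B 28 (23.1%). The median log2 ratios were -1.48 in bi, -1.09 in L and -0.71 in B, against 0.06, 0.04 and -0.03 for all genes. The order bi, L, B held for the medians of all 8 roles, among them helicase loading (-1.67, -1.20 and -0.81) and deoxynucleotide supply (-1.59, -1.16 and -0.81). Whether the populations differ in this response was not tested, since none has a second library.

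Single genes departed from that order. Dna2 had log2 ratios of -2.20 in bi, -1.20 in L and -1.90 in B, and E2f7 of -1.89, -1.18 and -1.47. Cdc6 had ratios of -2.26, -1.40 and -1.59. Each of these genes lay further below control in B than in L. In B the smallest gaps were those of Rfc4 (0.027), Gins4 (0.017) and Pola2 (0.0069), which were all slightly above 0.

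**Figure D4:**
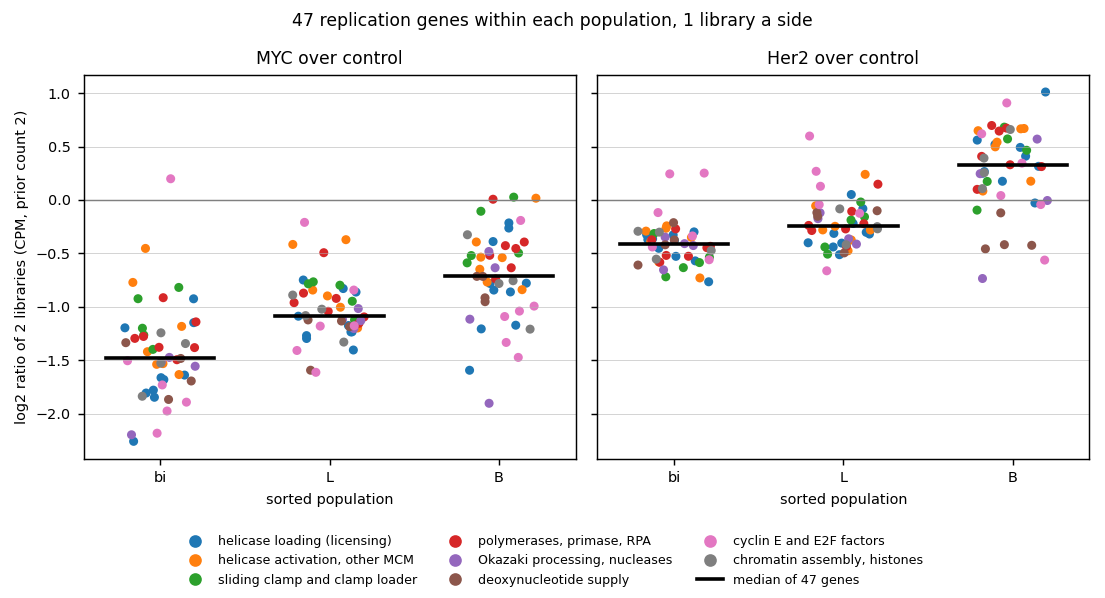
Log2 ratio of MYC to control (left) and of Her2 to control (right) for each of the 47 genes within bi, L and B, with 1 library on each side. Each point is a gene, coloured by role, and the black line is the median of 47. With MYC the medians are -1.48, -1.09 and -0.71, and with Her2 they are -0.41, -0.25 and 0.33.

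In cells with Her2 no replication gene passed the threshold against control on average over the populations. By edgeR 5 of all 23834 genes tested passed it, and Erbb2 itself did not (log2 fold change 2.12, SE 0.31, adjusted p = 0.0573). None of the 47 was called, where 0.021% of all genes were, and DESeq2 called none of them either. At an unadjusted p under 0.05 there were 3. The median log2 fold change was -0.14 against -0.01 for all genes, and with 1 library left out it ran from -0.27 without the B control to 0.047 without the bi control. It was -0.26 without B Her2, 0.0016 without L Her2, and -0.052 without bi Her2. The 3 genes with the smallest p were Tyms, E2f2 and Rfc5. Tyms stood at 56.2, 49.9 and 42.1 CPM in the Her2 libraries of bi, L and B, against 85.8, 70.3 and 57.7 in controls (log2 fold change -0.52, SE 0.18, adjusted p = 0.375). E2f2 stood at 11.4, 14.7 and 9.64 CPM with Her2 against 9.60, 9.67 and 6.27 (log2 fold change 0.50, SE 0.22, adjusted p = 0.556), and was above its control in each population. Rfc5, a small clamp loader subunit, stood at 49.4, 45.6 and 47.4 CPM against 76.6, 61.8 and 50.6 (log2 fold change -0.40, SE 0.18, adjusted p = 0.568). The Her2 value was below its own control in each population for Tyms and Rfc5.

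For most of the other genes the averaged estimate lay between populations that went different ways. Mcm3 stood at 226, 245 and 125 CPM with Her2 against 309.5, 259.6 and 104 (log2 fold change -0.10, SE 0.19, adjusted p = 0.994), and Uhrf1 at 276, 210.3 and 135 against 338, 281 and 113 (log2 fold change -0.15, SE 0.20, adjusted p = 0.969). Pole stood at 103, 108 and 109 CPM against 148, 126 and 86.9 (log2 fold change -0.15, SE 0.19, adjusted p = 0.969), Mcm10 at 43.0, 35.3 and 36.8 against 56.3, 45.8 and 23.2 (log2 fold change -0.040, SE 0.23, adjusted p = 0.998), and Lig1 at 104, 108 and 62.6 against 163, 144 and 52.8 (log2 fold change -0.29, SE 0.20, adjusted p = 0.838). Each of these 5 genes was below control in bi and L and above it in B.

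Within bi, 45 of the 47 genes were lower with Her2 than in control, by a median log2 ratio of -0.41, and 41 were lower in L, by -0.25. Within B 37 of 47 were higher, with a median of 0.33. At 1.5-fold or more, bi had none higher and 7 lower, where 21.1% of all genes were higher and 11.7% lower. L had 1 higher and 1 lower, where 14.9% and 14.8% of all genes were. B had 11 higher and 1 lower, where 14.4% and 23.7% of all genes were. These are pairs of single libraries with no test.

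Furthest above control in B were Cdt1, at 75.7 CPM with Her2 against 37.6 in control, and E2f1, at 32.9 against 17.5. Pola2, Rfc4, Prim1, Gins4, Mcm10, Chaf1b, Mcm8, Pold1 and E2f2 followed with log2 ratios of 0.62 to 0.70. All 7 helicase activation genes and all 7 polymerase, primase and single-strand binding genes were above control in B, with medians of 0.54 and 0.41. In bi all 14 of them were below control.

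The 4 deoxynucleotide supply genes went the other way in B. Rrm1 stood at 148 CPM with Her2 against 198 in control, Tyms at 42.1 against 57.7, Tk1 at 37.6 against 50.2 and Rrm2 at 89.9 against 97.8. They were the only role with every gene below control in all 3 populations, with median log2 ratios of -0.40 in bi, -0.14 in L and -0.42 in B. Dna2 (-0.73) and E2f7 (-0.56) lay furthest below control in B, at 7.99 against 13.3 CPM for Dna2 and 18.7 against 27.6 for E2f7.

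The E2F genes lay on both sides of control with Her2. E2f8 stood at 108, 80.4 and 49.8 CPM with Her2 against 90.9, 73.5 and 39.2 in controls, above control in each population, while E2f7 stood at 38.3, 43.3 and 18.7 against 51.9, 44.7 and 27.6, below it in each. E2f1 stood at 27.7, 34.5 and 32.9 CPM against 34.9, 28.7 and 17.5, above control in L and B and below it in bi. Neither repressor was called (E2f8 adjusted p = 0.853, E2f7 adjusted p = 0.691).

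Between MYC and Her2 the replication genes were again lower with MYC. With MYC 28 of the 47 genes were lower than with Her2 and none was higher, where 2.13% of all genes were lower. All 47 were lower in every population, as were 17.3% of all genes, and the median log2 fold change was -0.99 against 0.02 for all genes. E2f8 stood at 23.1, 24.0 and 15.6 CPM with MYC against 108, 80.4 and 49.8 with Her2 (log2 fold change -1.88, SE 0.18, adjusted p = 0.00225). Cdc6 stood at 9.54, 14.1 and 6.47 CPM against 36.5, 30.3 and 24.3 (log2 fold change -1.64, SE 0.23, adjusted p = 0.00736). E2f1 stood at 12.3, 15.98 and 8.504 CPM against 27.7, 34.5 and 32.9 (log2 fold change -1.43, SE 0.25, adjusted p = 0.0152). For these 3 genes every MYC library was below every Her2 library.

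Of the role groups, helicase loading was called lower with MYC in 7 of 10 genes and cyclin E and E2F factors in 5 of 6. Okazaki processing, deoxynucleotide supply and chromatin genes were called in 3 of 4 each. Helicase activation and polymerase genes were called in 3 of 7 each, and clamp and clamp loader genes in 1 of 5. Mcm3 (-1.35, adjusted p = 0.00733), Uhrf1 (-1.31, 0.00969), Pcna (-1.12, 0.0168), Mcm10 (-1.04, 0.0388) and Pole (-0.99, 0.0223) were among the 28 called genes. Lig1 (-0.82, 0.0507) and Rrm1 (-0.79, 0.0582) were not. The count of 28 became 3 when bi MYC was left out, 13 for L MYC or L Her2, 14 for bi Her2 and 17 for B Her2. This comparison shares its MYC libraries with that of MYC and control, and both comparisons with control share the 3 control libraries.

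Among the sorted populations the replication genes were higher in L and in bi than in B. Averaged over the 3 arms, 21 of 47 were called as higher in L than B and none as lower, where 11.5% of all genes were higher and 9.26% lower. Between bi and B 18 of 47 were higher and none lower, where 7.88% of all genes were higher and 5.11% lower. The median log2 fold changes were 0.60 for L against B and 0.63 for bi against B, with 0.04 and 0.03 for all genes. In all 3 arms 36 of 47 were higher in L than in B (26.7% of all genes) and 30 higher in bi than in B (23.8%).

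Tk1 showed the largest difference in both. It stood at 56.3, 123 and 142 CPM in the MYC, Her2 and control libraries of bi and 52.5, 105 and 114 in those of L, against 26.6, 37.6 and 50.2 in B. Each bi and L library was above every B library. The log2 fold change was 1.21 for L against B (SE 0.17, adjusted p = 0.000997) and 1.43 for bi against B (SE 0.17, adjusted p = 0.000746). Mcm3 stood at 86.1, 226 and 309.5 CPM in bi and 106, 245 and 259.6 in L, against 46.0, 125 and 104 in B, and differed by 1.16 (L, adjusted p = 0.00202) and 1.12 (bi, adjusted p = 0.00447). Within each arm Mcm3 was higher in bi and in L than in B. Uhrf1 stood at 94.6, 276 and 338 CPM in bi and 112, 210.3 and 281 in L, against 48.9, 135 and 113 in B (1.05, adjusted p = 0.0047 for L, and 1.18, 0.00436 for bi). Lig1 stood at 57.1, 104 and 163 CPM in bi and 65.7, 108 and 144 in L, against 34.0, 62.6 and 52.8 in B (1.04, adjusted p = 0.00542 for L, and 1.03, 0.00962 for bi). For Mcm3 and Uhrf1 the MYC libraries of bi were below the B controls, so arms overlapped across populations, and within each arm bi and L were above B for Uhrf1 and Lig1 too.

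By role, the medians ran from 0.23 for polymerase genes to 0.89 for Okazaki processing genes in L against B, and from 0.23 to 0.98 for the same roles in bi against B. Clamp and clamp loader genes were next to lowest, at 0.35 and 0.36, and Pcna was at 0.62 (adjusted p = 0.0509) and 0.63 (0.0697). Pole was at 0.20 (adjusted p = 0.519) and 0.23 (0.523). Mcm7 was the only gene below 0 in both, at -0.28 (adjusted p = 0.458) and -0.15 (0.767). It stood at 92.8, 125 and 213 CPM in the MYC, Her2 and control libraries of bi and 91.7, 126 and 167 in L, against 116, 199.9 and 139.5 in B, so that it was lower in bi and L than in B with MYC and Her2 and higher in the controls. Mcm2 was at 0.14 and 0.19, and E2f8 was called higher in both (0.74, adjusted p = 0.0152, and 0.97, 0.00652).

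**Figure D5:**
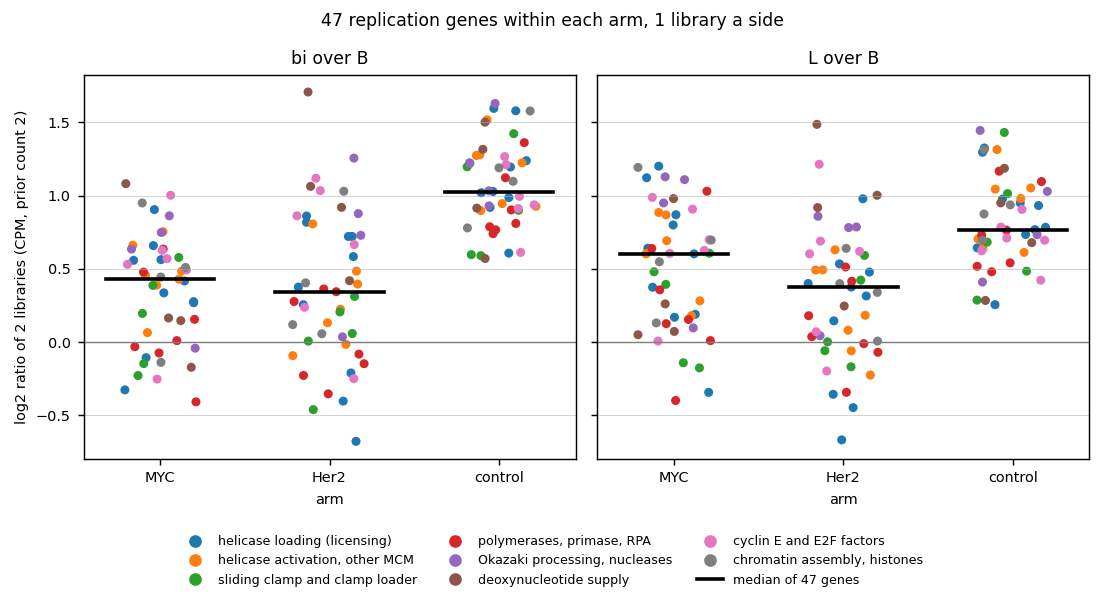
Log2 ratio of bi to B (left) and of L to B (right) for each of the 47 genes within the MYC, Her2 and control arms, with 1 library on each side. Each point is a gene, coloured by role, and the black line is the median of 47. For bi over B the medians are 0.43, 0.34 and 1.03, and for L over B they are 0.60, 0.38 and 0.77.

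The difference from B was widest among control cells. In the controls 46 of 47 genes were at least 1.5-fold higher in bi than in B (20.3% of all genes), against 12 with MYC (23.8%) and 16 with Her2 (30.8%). For L over B the numbers were 38 in the controls (21% of all genes), 25 with MYC (31.7%) and 14 with Her2 (26.5%). With 47 genes, the counts with MYC in bi over B and with Her2 in both pairs were thus close to the shares of all genes. The filter asked for a minimum count of 10, while the 47 had at least 135 reads in every library. The shares of all genes are therefore not matched to the 47 for level. All 47 were above 0 in the controls for both pairs, and these ratios have no test.

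The count of 21 for L against B became 6 without L MYC, 6 without L control, 9 without B control, 10 without B MYC and 13 without L Her2. The count of 18 for bi against B became 5 without bi control, 8 without bi Her2, 9 without B MYC and 11 without B control. The B libraries also had few Epcam and Cdh1 transcripts, a higher summed level of fibroblast markers and low totals, though the bi MYC total was below that of the B control. The part of these in the population differences was not tested.

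Between bi and L none of the 47 genes was called, where 0.751% of all genes were, and none had an unadjusted p under 0.05 by edgeR. DESeq2 called none either. The median log2 fold change was 0.05. The 3 smallest p-values were those of Ccne2 (log2 fold change 0.47, SE 0.27, adjusted p = 0.796), E2f8 (log2 fold change 0.23, SE 0.17, adjusted p = 0.914) and Tk1 (log2 fold change 0.22, SE 0.17, adjusted p = 0.937). Ccne2 stood at 4.97, 20.9 and 22.6 CPM in the MYC, Her2 and control libraries of bi, against 5.95, 10.00 and 15.8 in L, higher in bi with Her2 and in control and lower with MYC. Mcm3 was at -0.043 (SE 0.19), Uhrf1 at 0.14 (SE 0.20) and Pcna at 0.0029 (SE 0.20). A difference of several times the SE can go uncalled in these fits, as Pcna did at -1.05 (SE 0.20) in MYC against control. Within arms the median log2 ratio of bi to L was -0.20 with MYC, 0.01 with Her2 and 0.25 in the controls, with 41 of 47 genes below 0 with MYC and 45 above 0 in the controls, untested.

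Other genes of the same processes were described by 6 lists of 80 genes in all, none of them among the 47. For MYC against control the median log2 fold change of the 80 was -0.73, with 71 estimates below 0 and 9 above. In 5 of the 80 the MYC library was above its control in all 3 populations. With MYC 6 of the 80 fell and none rose against control, where 0.264% of all genes fell. They were Dbf4, the activator of the kinase that fires origins, Chtf18, a subunit of an alternative clamp loader, Fbxo5, an inhibitor of the anaphase-promoting complex, and Hells, Usp1 and Nasp of the list of other chromatin replication genes. Dbf4 averaged 47.2 CPM in MYC libraries and 104 CPM in controls (log2 fold change -1.11, adjusted p = 0.0283), and Hells, a chromatin remodeller, at 53.9 against 129 (-1.24, 0.0395). None of the 12 checkpoint and repair genes or the 12 other nucleotide genes was called by edgeR, where 8 and 7 had an unadjusted p under 0.05, and the nearest were Chek1 (-1.20, 0.054) and Dck (-1.07, 0.0518).

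With Her2 none of the 80 was called against control by edgeR, and 6 had an unadjusted p under 0.05. MYC against Her2 gave 22 lower and none higher, where 2.13% of all genes were lower, and among them were Dut (-1.23, adjusted p = 0.0267), which removes dUTP, and Wdhd1 (-1.11, 0.0191), a fork scaffold. Of the 80, 17 were higher and 3 lower in L when set against B, and 14 higher and 1 lower in bi than in B, where the shares of all genes were 11.5% and 9.26% for L and 7.88% and 5.11% for bi. Ccna2, the S-phase cyclin A2, was furthest apart, averaging 234 CPM over L libraries and 197 CPM over bi libraries against 59.7 CPM over B libraries (1.99, adjusted p = 0.000514 for L, and 1.68, 0.00231 for bi). Lower in L were the RB family genes Rb1 (-0.70, 0.0285) and Rbl2 (-0.75, 0.0179) and the origin subunit Orc3 (-0.72, 0.0114), and Rbl2 was also the one lower in bi (-0.68, 0.0392).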

How the data were processed

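Total RNA of 9 sorted libraries was made into stranded, ribosome-depleted libraries, per the labels. The deposited estimated counts and TPM per gene were made with Salmon 0.9.1 on mm10, per the submitters' processing notes, and the annotation release is not given in the sources used here. The gene lengths in the files were deposited with them. Symbols from the GENCODE vM21 annotation were joined to 53544 gene IDs with version and 563 without it, and 174 IDs had none. Estimated counts were rounded and tested with edgeR 4.0.16 (R 4.3.3) by a quasi-likelihood F test, with arm and population as additive terms over all 9 libraries and 4 residual degrees of freedom, after a filter (minimum count 10, minimum total 15) that left 23834 genes, TMM scaling and Benjamini-Hochberg adjustment. A gene was called at an adjusted p under 0.05. Levels are CPM on TMM-scaled totals, and ratios of single libraries use log2 CPM with a prior count of 2. The residual holds the interaction of population and arm, and nothing in the labels says that libraries came from separate cultures, so p-values measure only the spread between these libraries. CPM is not per length, so levels are compared within a gene.

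Alternatives were other scalings, filters and prior counts, DESeq2 1.42.0, limma-trend (limma 3.58.1) on CPM and on the deposited TPM, no block, only the 6 libraries compared, and leaving out each library, population or arm. The code was tested on simulated counts. Full statistics go to up to 4 called genes each way with the largest change, or the 3 with the smallest p where none was called, and to the most abundant gene of each remaining role. From each of the 6 lists of other genes up to 2 called genes each way, or the one with the smallest p, are named, and a gene outside this rule was chosen after its values were seen. The 47 genes, the lists and the marker genes were chosen with earlier results of these data known. The CCAAT and CACGTG motifs were chosen after the E2F search.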

Additional observations from a re-analysis of the deposited data

Results flagged for a closer look

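In Her2 against control, the replication genes stood on opposite sides of control in the sorted populations. The median log2 ratio of the 47 genes was -0.41 in bi and -0.25 in L, and 0.33 in B. The difference between populations was not tested, since each ratio compares 1 library with 1.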

How the results depend on the processing

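The calls were not made without the block: with no block, MYC against control gave 0 of the 47 genes lower in place of 17, MYC against Her2 0 in place of 28, L against B 0 higher in place of 21 and bi against B 0 in place of 18. For MYC against control the 17 became 11 with RLE scaling, 26 with upper-quartile scaling, 38 with no filter on low counts, 27 with a mean of at least 1 CPM, 38 with DESeq2, 35 on the deposited TPM and 31 with only the 6 libraries compared, and ran from 0 to 42 without 1 library or population. Without 1 library, population or arm, MYC against Her2 ran from 3 to 38, L against B from 6 to 21 higher and 0 to 1 lower, and bi against B from 4 to 19. Under the other scalings, filters, tests and subsets apart from no block, MYC against Her2 ran from 19 to 35. Under the same settings L against B ran from 14 to 25 higher and bi against B from 12 to 26. Of the called genes, 11 of 17, 16 of 28, 10 of 21 and 8 of 18 in these 4 comparisons kept their call under the scalings, filters, tests and subsets other than no block and leaving out libraries. None changed sign. For Her2 against control and bi against L the count of the 47 was 0 in every alternative run.

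Over all genes, the 87 calls of MYC against control became 54 with RLE, 256 with no scaling, 222 with upper-quartile scaling, 944 with no filter, 248 with a mean of at least 1 CPM, 966 with DESeq2, 667 on TPM, 4 with no block and 680 with 6 libraries, and 6 to 844 without 1 library or population. The 5 calls of Her2 against control (3 higher, 2 lower) became 32 with RLE (24 higher, 8 lower), 32 with no scaling (23 higher, 9 lower), 0 with upper-quartile scaling, 619 with no filter, 1 with a mean of at least 1 CPM, 509 with DESeq2, 0 on TPM, 0 with no block, 196 with 6 libraries, and 0 to 125 in the leave-outs. MYC against Her2 had 2089 with no filter, 1887 with DESeq2, 564 on TPM, 6 with no block and 217 to 2070 in the leave-outs against 1089. L against B had 2820 to 5328 in the leave-outs against 4953. bi against B had 1430 with no block and 1843 to 3276 in the leave-outs against 3094. bi against L had 698 with no filter, 89 with a mean of at least 1 CPM, 663 with DESeq2, 7 on TPM, 20 with no block and 33 to 241 in the leave-outs against 179. The causes were not tested.

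Estimates near 0, none of them called, changed sign. In Her2 against control Mcm10 was at 0.0042 with a mean of at least 1 CPM and from -0.33 to 0.19 in the leave-outs, Mcm3 from -0.22 to 0.10, Pole from -0.32 to 0.048 and Uhrf1 from -0.30 to 0.060. In bi against B Pole ran from -0.032 to 0.39. In bi against L Lig1 was at 0.0021 with no filter, 0.044 on TPM, 0.031 with no block and -0.23 to 0.13 in the leave-outs. Mcm3 was at 0.026 with no block and -0.25 to 0.10. Pcna was at -0.044 with no scaling, -0.018 with upper-quartile scaling, -0.029 with a mean of at least 1 CPM, -0.0072 with limma-trend, -0.040 on TPM and -0.20 to 0.11. Pole was at -0.025 with no scaling, -0.0093 with a mean of at least 1 CPM and -0.18 to 0.14. Mcm10 ran from -0.11 to 0.29 and Uhrf1 from -0.031 to 0.32.

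With 1 library for each combination, the interaction of arm and population and the error between cultures were not separable. The median log2 fold change of all genes lay more than 0.1 from 0 in 5 cases: with no filter it was 0.133 for L against B and 0.112 for bi against B, on TPM -0.124 for MYC against control, and without the B control 0.117 and 0.118 for L and bi against B. The lowest read count of any of the 47 genes in a library was 135.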
